A study of Homo sapiens with 6 samples.

Results

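The data described here are the Krüppel-like factors KLF2, KLF3, KLF4, KLF5, KLF6, KLF7, KLF9, KLF10, KLF11 and KLF13, 10 genes picked by symbol out of 35268 named genes in an expression table from Rh30 cells. Rh30 is an established human line of fusion-positive rhabdomyosarcoma, a childhood tumour of muscle-like cells that is driven in this line by the PAX3-FOXO1 fusion protein, and all 6 libraries come from this one line. Cells received 1 µM YK-4-279 dissolved in DMSO, or DMSO alone as vehicle, and polyadenylated RNA was sequenced after 24 hours from 3 samples of each group. YK-4-279 is a compound described as blocking contacts between ETS transcription factors and other proteins, and the comparison asks which genes differed in level after this exposure. No label states that the 3 samples of a group were separate cultures, so p-values measure the spread between these samples only.

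KLF proteins are transcription factors that bind GC-rich DNA through zinc fingers at their carboxy terminus. Their remaining sequence differs and sorts them by partner. KLF2, KLF4, KLF5, KLF6 and KLF7 belong to a subgroup that recruits acetyltransferases and mostly activates transcription, KLF3 belongs to a subgroup that recruits the corepressor CtBP, and KLF9, KLF10, KLF11 and KLF13 belong to a subgroup that recruits the corepressor SIN3A. Several KLF genes respond quickly to growth factors, stress or hormones, and family members regulate proliferation and differentiation, in skeletal muscle among other tissues.

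The letters that KLF and SP zinc fingers bind, the GC box GGGCGG and the CACCC box, were searched on both strands in the 250 bases before the transcript start of each member, taken from RefSeq on GRCh38.p14, the same coordinates as the hg38 build of the study. A promoter was matched for 8 of the 10 members. For KLF11 the RefSeq start lay 279 bases after the start of the canonical transcript, so its window is not upstream of that transcript. Exons of at least 1 transcript of the same gene overlapped the windows of KLF6, KLF7 and KLF11. The GC box was present in 6 of these 8, against 42.6% of all 35116 promoters of the table, and the CACCC box in 3 of 8, against 54.7%. Shown here are the windows of KLF4 and KLF5, the members that rose with the drug, and of KLF2, a member of the same subgroup that was not called, with matches to either box in capitals, read 5′ to 3′ along the strand of each gene.
KLF4: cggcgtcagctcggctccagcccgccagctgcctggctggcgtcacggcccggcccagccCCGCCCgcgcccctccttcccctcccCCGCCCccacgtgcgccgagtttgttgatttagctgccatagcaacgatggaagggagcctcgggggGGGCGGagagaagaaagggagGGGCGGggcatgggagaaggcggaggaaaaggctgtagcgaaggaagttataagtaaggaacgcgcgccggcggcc
KLF5: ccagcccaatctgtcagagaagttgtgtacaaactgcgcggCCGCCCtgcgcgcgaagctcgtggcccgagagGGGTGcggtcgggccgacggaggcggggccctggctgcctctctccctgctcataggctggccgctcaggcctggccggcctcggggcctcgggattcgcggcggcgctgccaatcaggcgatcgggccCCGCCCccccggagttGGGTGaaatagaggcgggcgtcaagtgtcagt
KLF2: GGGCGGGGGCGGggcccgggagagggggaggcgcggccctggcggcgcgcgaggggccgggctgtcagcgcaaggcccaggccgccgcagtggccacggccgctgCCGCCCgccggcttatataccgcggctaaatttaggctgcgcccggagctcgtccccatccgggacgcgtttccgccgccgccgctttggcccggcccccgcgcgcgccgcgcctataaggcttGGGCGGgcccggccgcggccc
The windows lie at chr9:107489770-107490019 on the minus strand for KLF4, chr13:73058755-73059004 on the plus strand for KLF5 and chr19:16324576-16324825 on the plus strand for KLF2. KLF4 and KLF2 each held 4 GC boxes and no CACCC box, whereas KLF5 held 2 of each, and in these 3 windows no match to one box overlapped a match to the other. The bases were 69.2%, 70.8% and 80% G or C in KLF4, KLF5 and KLF2, against a median of 58% over all promoters. A match to these letters describes the window and does not show that a factor is bound. The ETS motif CCGGAAG, searched on both strands, was in none of the 8 windows and in 8.52% of all promoters. Only these exact letters were searched, so ETS sites that differ from them were not counted. The CArG box of serum response factor was in none of the 8 and in 1.16% of all. At such shares, 8 windows are too few for an absence to be informative. The CCAAT box, likewise on both strands, was in 4 of the 8 members with a window, KLF5, KLF6, KLF9 and KLF13, and in 32% of all promoters.

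The libraries held between 16724650 and 24677433 reads on named genes. The deposited values are normalized counts, that is reads scaled by one factor per library, and all KLF levels below are on this scale. Treated and vehicle libraries were compared by limma on log2(normalized count + 1) for 13930 genes whose mean reached 10, of which 475 passed an adjusted p-value of 0.05, or 3.41% of those tested, 1.26% being higher and 2.15% lower with the drug. The line carried the markers of its type, with MYOD1, the myogenic determination factor, at between 34516 and 39146 normalized counts, and all 8 rhabdomyosarcoma markers of the list were tested in limma and none passed. At an unadjusted p under 0.05, which 18.7% of all genes tested had, 3 of the 8 passed. DMSO replicate 1 stood apart, since its mean correlation with the others across genes was 0.989 (the other 5 had at least 0.992) and mitochondrial genes took 6.05% of its reads (4.74% to 5.03% elsewhere). It was also the library with the fewest reads, 16724650, and the part of this depth in its correlation was not tested.

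Per kilobase of transcript (the canonical transcript of GENCODE 44), the highest level in DMSO was that of KLF10, a gene induced early by TGF-beta, at 442 ± 26.5 normalized counts per kb (SD, n = 3). KLF13, known from T cells and heart, followed at 312 ± 8.38 and KLF2, known from endothelium and lung, at 291 ± 34 normalized counts per kb. The DMSO values of KLF13 and KLF2 overlapped, so that their order was not resolved. KLF3 and KLF6 had 148 ± 13.1 and 146 ± 6.85 normalized counts per kb, which overlapped in the same way, and KLF9 had 111 ± 18.6. The lowest of the well-expressed members were KLF5, KLF4 and KLF7, at 83.2 ± 9.08, 60.7 ± 6.78 and 37 ± 1.38 normalized counts per kb, each separated from its neighbours in DMSO. KLF11 was at the bottom with 0.624 ± 0.625. With the drug, KLF5 had 114 ± 6.12 and KLF9 112 ± 3.7 normalized counts per kb, and the values of these 2 genes overlapped, as did those of KLF6 and KLF3, so that their order was not resolved.

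**Figure D1:**
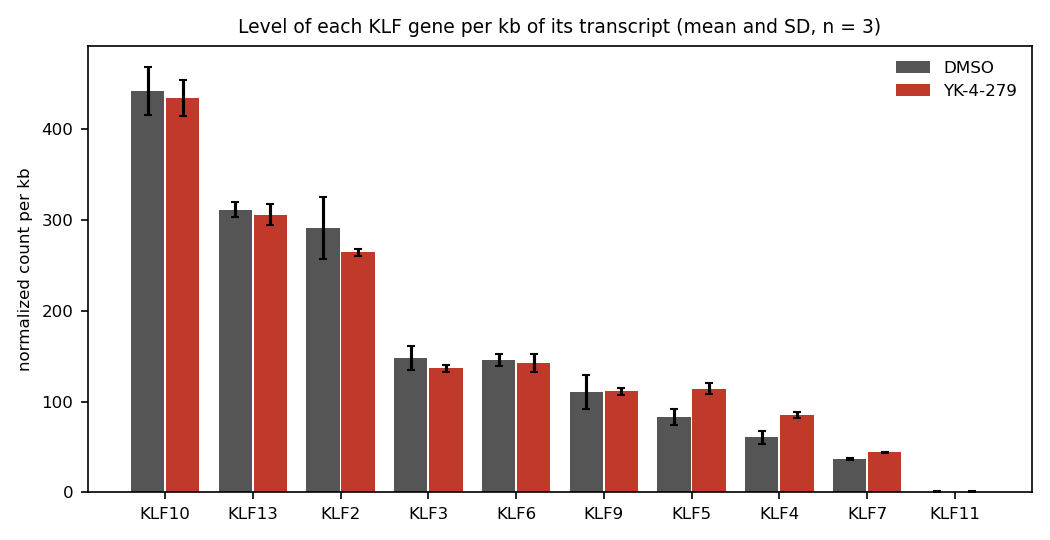
Level of each KLF gene in normalized counts per kb of its canonical transcript, in order of the DMSO level (grey, DMSO; red, 1 µM YK-4-279; bars, mean; error bars, SD, n = 3 each). KLF10 was highest and KLF11 close to 0, and the drug-treated bars of KLF5, KLF4 and KLF7 stand above those of DMSO.

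In drug-treated cells KLF4 and KLF5 rose by 40.4% and 37.1%, and KLF7, the next member by size, was higher by 19.3% without passing the test. Of the 9 members tested, 2 were called, both higher, beside 3.41% of all genes tested, and 7 were not called. The median log2 fold change over the 9 was -0.025, beside -0.0075 over all genes tested. KLF4, KLF5 and KLF7 lay above DMSO in every drug-treated library, KLF3 lay below, and the groups overlapped for the other 5, whereas 26% of all genes tested had groups that did not overlap, 10.9% above and 15.1% below. KLF4, KLF5 and KLF7 are all of the acetyltransferase-binding subgroup, in which fold changes ran from -0.13 for KLF2 to 0.49 for KLF4 on the log2 scale. The 3 members of the SIN3A-binding subgroup that were tested lay between -0.026 and 0.019.

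**Figure D2:**
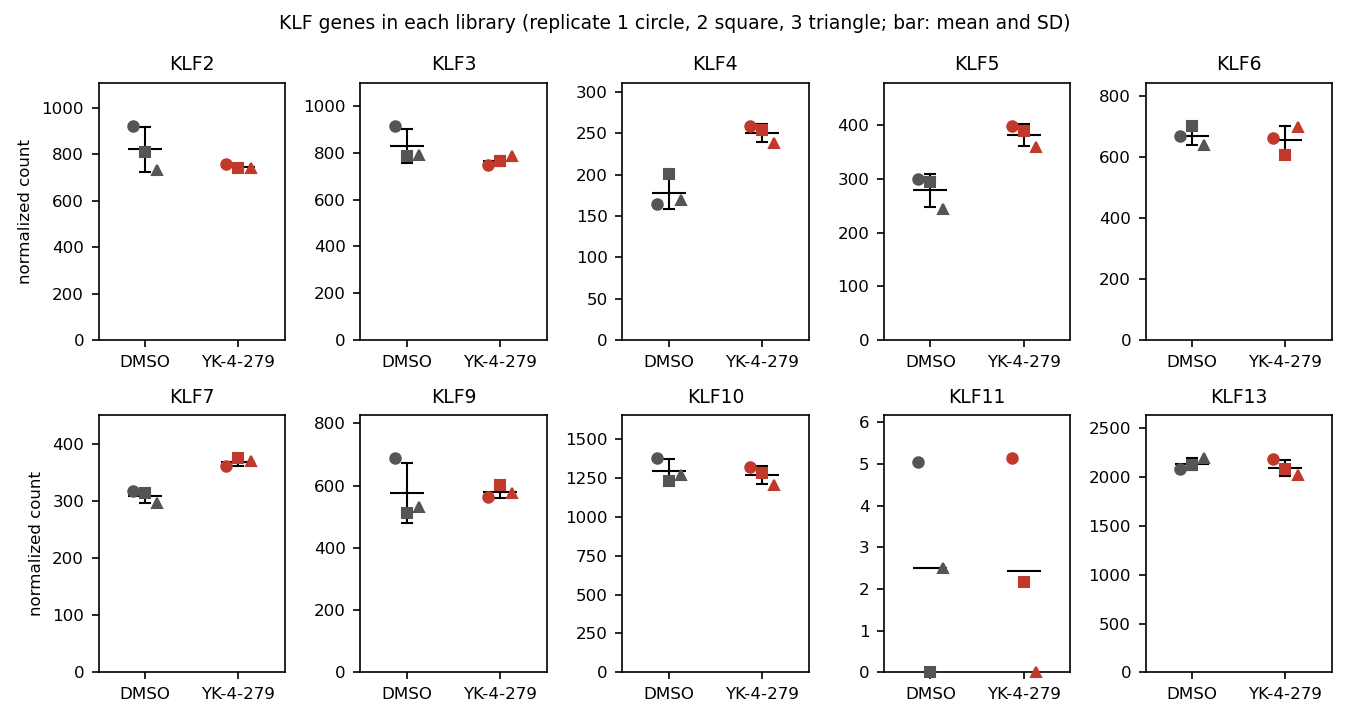
Normalized count of each KLF gene in each library, with a linear axis from 0 in each panel (circle, square and triangle, replicates 1, 2 and 3; horizontal line, mean; error bar, SD, n = 3, left out for KLF11). The drug-treated points of KLF4, KLF5 and KLF7 all lie above the DMSO points, and DMSO replicate 1 is the highest of the 6 libraries for KLF2, KLF3, KLF9 and KLF10.

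KLF4, one of the reprogramming factors and a regulator of growth arrest and differentiation in epithelia, lies on chromosome 9 from 107484852 to 107489769 on the minus strand of hg38 (positions of the canonical transcript in 5 exons). Its normalized counts were 164, 201 and 169 with DMSO and 259, 253 and 238 with YK-4-279, in the order of the replicate numbers. The lowest drug-treated library was thus above the highest DMSO library. The mean went from 178 ± 19.9 to 250 ± 10.7 (SD, n = 3 each). On the log2 scale the difference was 0.49, with SE 0.11 and a 95% confidence interval of 0.25 to 0.73 (adjusted p = 0.0316, limma). A smaller absolute difference was found for 94.6% of genes. Between 130 and 302 reads per library lay behind these values.

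KLF5, which promotes proliferation in epithelial and smooth muscle cells, lies on chromosome 13 from 73059005 to 73077538 on the plus strand (4 exons). Its normalized counts were 299, 294 and 244 with DMSO and 398, 389 and 359 with YK-4-279, in the same order. No drug-treated library overlapped with DMSO, and DMSO replicate 3 was the lowest of the 6. The mean went from 279 ± 30.4 to 382 ± 20.5 (SD, n = 3 each). On the log2 scale the difference was 0.46, with SE 0.10 and a 95% confidence interval of 0.24 to 0.68 (adjusted p = 0.0290, limma). KLF5 had the lowest adjusted p-value of the members, and the genes with the most similar profile over the 6 libraries, among 10698 compared, were ITGA4 (Pearson's r = 0.989), LINC01426 (r = 0.989) and MAGEH1 (r = 0.987), a description of libraries that share the treatment.

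KLF7, a factor of neuronal and fat cell differentiation, lies on chromosome 2 from 207074137 to 207165948 on the minus strand (4 exons). Its normalized counts were 318, 315 and 296 with DMSO and 362, 376 and 370 with the drug, in replicates 1, 2 and 3. The groups did not overlap. On the log2 scale the difference was 0.25, with SE 0.087 and a 95% confidence interval of 0.067 to 0.44 (adjusted p = 0.132, limma), so that the interval of the gene lay above 0 while the adjusted p-value over all genes did not pass. Without DMSO replicate 1 it passed, at 0.27 (limma adjusted p = 0.0306), where 13.1% of all genes tested were called.

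The calls of KLF4 and KLF5 depended on single libraries, although their direction did not. They held without DMSO replicate 1 (limma adjusted p = 0.00457 for KLF4 and 6.9e-05 for KLF5) and without DMSO replicate 2 (0.0142 and 0.0231), where 13.1% and 4.92% of genes were called. Neither was called without DMSO replicate 3 (limma adjusted p = 0.0951 for KLF4 and 0.105 for KLF5, with 1.74% of genes called), nor without drug-treated replicate 1 (0.188 for both), 2 (0.158 for both) or 3 (0.113 and 0.0956), and these last 3 fits called 0.137%, 0.18% and 0.331% of genes. With the replicate number as a block in limma, where 1.29% of genes were called, the adjusted p was 0.0675 for KLF4 and 0.0511 for KLF5, and without the trend in eBayes, where 0.237% were, it was 0.109 and 0.125. Quantile normalization, with 1.99% of genes called, left KLF5 called (adjusted p = 0.0494) and KLF4 not (0.0517). KLF4 and KLF5 were both called, and KLF7 was not, by edgeR (3.34% of genes called) and by DESeq2 (4.56%) on the recovered reads. After detrending of every library on GC content and transcript length, 13.9% of genes were called, among them KLF4, KLF5 and KLF7.

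**Figure D3:**
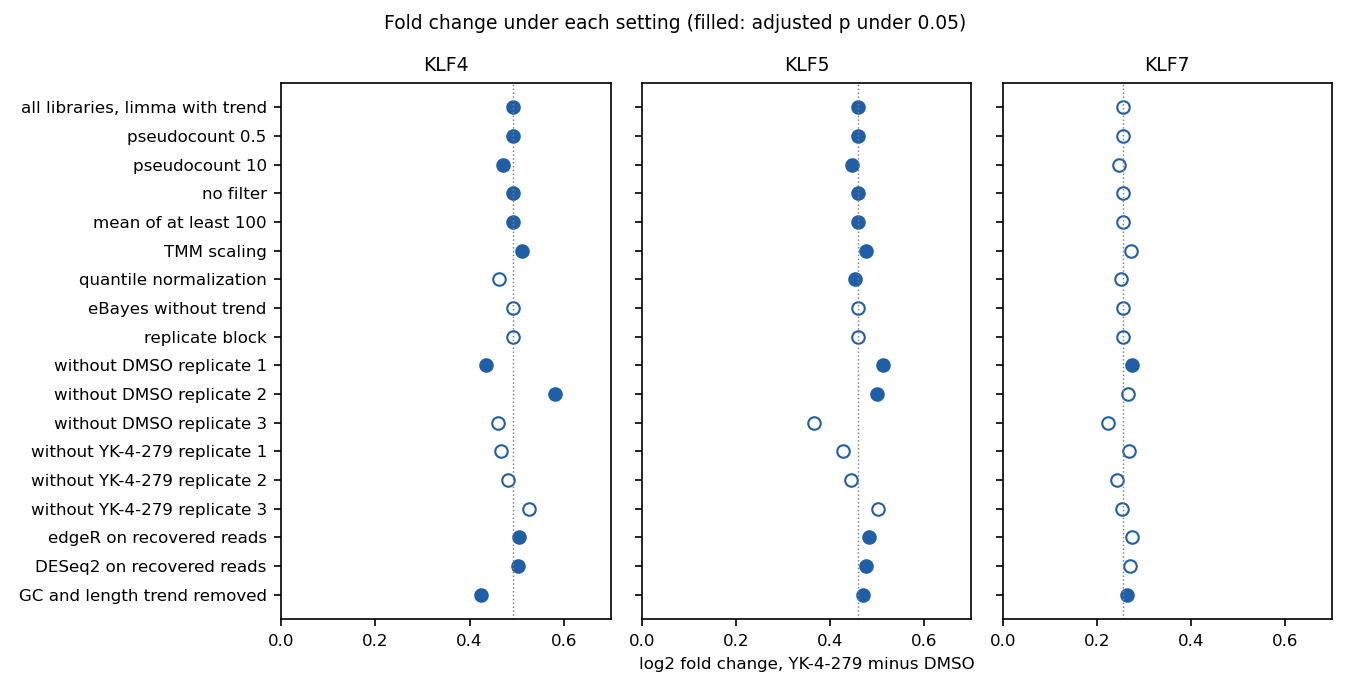
Log2 fold change of KLF4, KLF5 and KLF7 with all libraries and under each of 17 alternatives (one row each; filled points, adjusted p under 0.05; dotted line, value with all libraries). All points lie above 0, and both KLF4 and KLF5 have open points without DMSO replicate 3, without any one drug-treated library, with eBayes without trend and with a replicate block, as KLF4 also has with quantile normalization.

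Markers of other cell types were looked at because KLF4 and KLF5 are abundant in epithelia. Of 8 such markers, 5 had a mean under 10 normalized counts, HBB, a red cell gene, was at 0 in every library, and the sum over the list was 78.5 to 95.9 in DMSO and 88.0 to 131 in drug-treated libraries. EPCAM, an epithelial surface protein and the highest of them, had 64.3, 53 and 50.1 normalized counts with DMSO and 88.3, 59.8 and 72 with the drug, with overlapping groups (log2 fold change 0.38, limma adjusted p = 0.305). Its part in the values of KLF4 and KLF5 was not tested.

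The remaining members of the acetyltransferase-binding subgroup were KLF2 and KLF6. KLF2, a factor of quiescence and of the response of endothelium to flow, had 923, 808 and 732 normalized counts with DMSO and 758, 740 and 740 with YK-4-279. The DMSO values spread widely, with replicate 1 at the top and replicate 3 below all drug-treated libraries. The log2 fold change was -0.13 (95% interval from -0.32 to 0.054, adjusted p = 0.437 by limma). Across the fits without 1 library it went from -0.21 without DMSO replicate 3 to -0.044 without DMSO replicate 1. After detrending on GC content and transcript length it was -0.22 (limma adjusted p = 0.163). KLF6, an early response factor described as a growth suppressor, had 667, 701 and 639 normalized counts with DMSO and 662, 607 and 698 with the drug, a log2 fold change of -0.030 (95% interval from -0.20 to 0.14, adjusted p = 0.879 by limma).

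KLF3, the CtBP-binding member and mostly a repressor, had 914, 785 and 790 normalized counts with DMSO and 745, 763 and 784 with YK-4-279. All 3 drug-treated values were under the lowest DMSO value, but 784 and 785, the nearest pair, were almost equal. The log2 fold change was -0.12 (95% interval from -0.28 to 0.054, adjusted p = 0.459 by limma). Across the fits without 1 library it went from -0.15 without DMSO replicate 2 to -0.044 without DMSO replicate 1, which was the highest library.

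Among the SIN3A-binding members, KLF9, a target of glucocorticoid and thyroid hormone receptors, had 688, 512 and 532 normalized counts with DMSO and 563, 601 and 576 with the drug. DMSO replicate 1 stood above the other 2 DMSO libraries by 0.40 on the log2 scale, the largest such gap of any member tested, and the drug-treated libraries lay between. Its log2 fold change was 0.019 with all libraries (95% interval from -0.21 to 0.24, adjusted p = 0.949 by limma) and 0.15 without DMSO replicate 1 (adjusted p = 0.165). KLF10 had 1376, 1226 and 1267 normalized counts with DMSO and 1316, 1280 and 1204 with the drug, a log2 fold change of -0.025 (95% interval from -0.18 to 0.13, adjusted p = 0.882 by limma). KLF13, with the largest count of the family, had 2079, 2126 and 2193 with DMSO and 2182, 2082 and 2023 with the drug, a log2 fold change of -0.026 (95% interval from -0.16 to 0.10, adjusted p = 0.857 by limma). For the 6 members whose interval held 0, no bound was farther from 0 than 0.32 on the log2 scale.

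KLF11, a paralog of KLF10 in the same TGF-beta inducible branch, was hardly detected. It had 4, 0 and 3 reads with DMSO and 6, 2 and 0 reads with YK-4-279. At these counts it did not enter the test, and no fold change is given. The pseudogene rows KLF2P2 and KLF4P1 were at 0 in all 6 libraries.

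The spread between DMSO libraries was larger than that between drug-treated libraries for 7 of the 9 members tested, with a median coefficient of variation of 8.81% against 3.83%. DMSO replicate 1 was the highest DMSO library for 6 of the 9 and the highest of all 6 libraries for 4 of them.

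The other genes of the KLF and SP families give the family context. Of 8 further KLF genes, 4 had enough reads to be tested and none passed. KLF12, a CtBP-binding repressor and the highest of them, had 854, 714 and 761 normalized counts with DMSO and 788, 781 and 776 with the drug, a log2 fold change of 0.015 (limma adjusted p = 0.949). KLF14, KLF15 and KLF16 had differences of 0.20, 0.047 and -0.0091 on the log2 scale, and KLF1, KLF8, KLF17 and KLF18 had at most 3.26 normalized counts in any library. Of the 9 SP genes, which share the zinc fingers and bind the same GC boxes, 6 were tested and none passed, with a median of -0.080. SP3, the highest of them, had a log2 fold change of -0.083 (limma adjusted p = 0.529), and the ubiquitous factor SP1 had one of -0.078 (limma adjusted p = 0.488). None of these 10 further genes had an unadjusted p under 0.05 in limma, beside 18.7% of all genes tested, and none was called by edgeR or DESeq2.

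**Figure D4:**
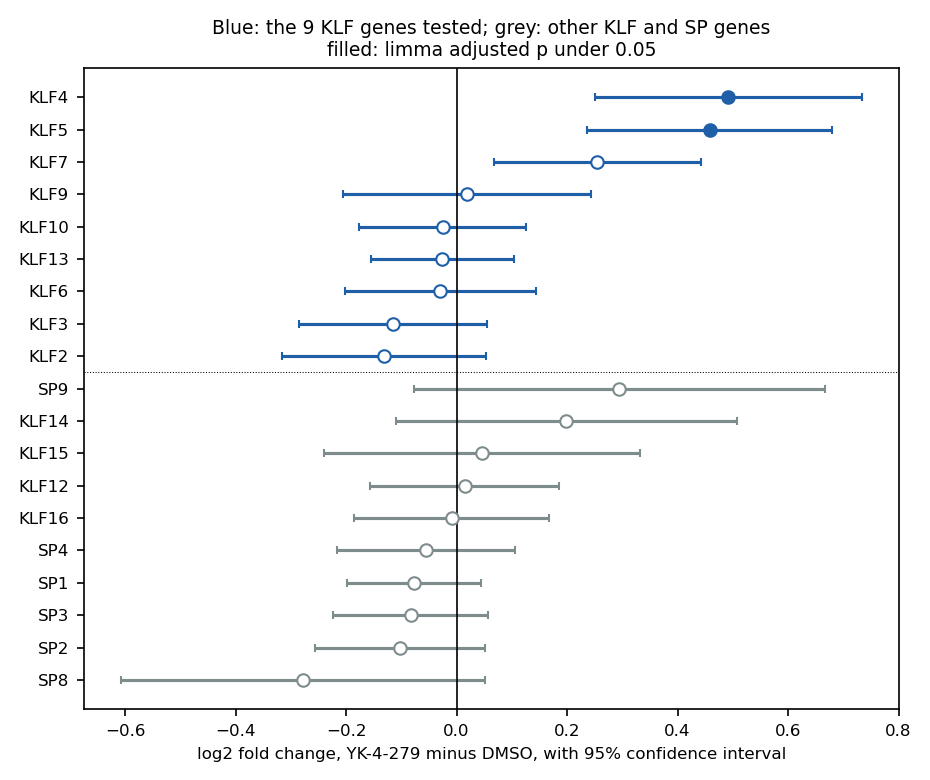
Log2 fold change, YK-4-279 minus DMSO, with its 95% confidence interval from limma, for the 9 KLF genes tested (blue) and the 10 other KLF and SP genes tested (grey), each in order of size. Filled points passed an adjusted p of 0.05 over all genes, which only KLF4 and KLF5 did.

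In limma, none of 8 corepressor genes passed, with a median log2 fold change of -0.055. SIN3A, the partner that names the SIN3A-binding subgroup, had 3759, 3302 and 3409 normalized counts with DMSO and 2913, 3060 and 2924 with the drug, and its groups did not overlap (log2 fold change -0.23, limma adjusted p = 0.0614). HDAC2, a histone deacetylase and the highest of the list, had a log2 fold change of -0.037 (limma adjusted p = 0.795). None of 4 acetyltransferase genes passed either, and CREBBP, the highest, had a log2 fold change of 0.052 (limma adjusted p = 0.674). Of 13 tested genes of upstream signals, among them the kinases MAP2K5 and MAPK7, MEF2 factors, hormone receptors and TGF-beta components, none passed, and TGFBR1, the highest, had a log2 fold change of -0.097 (limma adjusted p = 0.420). None of 8 ubiquitin ligase genes passed, and ITCH, the highest, had one of -0.050 (limma adjusted p = 0.726). At an unadjusted p under 0.05, beside 18.7% of all genes tested, limma had 1 corepressor (SIN3A), 2 acetyltransferase genes (EP300 and KAT2B), 3 upstream genes (MAPK7, MEF2D and TGFB1) and 2 ubiquitin ligase genes (BTRC and FBXO32), named after their values were seen. By edgeR none of these 4 lists had a called gene, and by DESeq2 1 corepressor and 1 upstream gene were called.

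A list of 24 genes described as targets of one KLF protein or another had 19 members tested, of which 6 passed, 4 higher and 2 lower, beside 3.41% of all genes tested, with a median log2 fold change of 0.086. The list was chosen with earlier results of these data known, so the number that passed cannot be read as a result about KLF targets. SMAD7, the inhibitor of TGF-beta signalling that KLF10 and KLF11 are known to repress, had 180, 243 and 228 normalized counts with DMSO and 344, 273 and 337 with the drug, which is 0.55 on the log2 scale (SE 0.13, adjusted p = 0.0360 by limma). Every drug-treated library of SMAD7 lay above every DMSO library. ATF3, a stress-induced factor, and COL1A1, a collagen chain, rose by 0.43 and 0.34 on the log2 scale (limma adjusted p = 0.00741 and 0.0375). CCNE1, the cyclin of entry into S phase, and PDGFA, a growth factor that KLF5 is known to activate, fell by 0.33 and 0.28 on the log2 scale (limma adjusted p = 0.0196 and 0.0307). CCNE1 and PDGFA were named after their values were seen. CCNB1, the mitotic cyclin and the highest of the list, had a log2 fold change of -0.083 (limma adjusted p = 0.607), and CDKN1A, the cell cycle inhibitor that KLF4 and KLF6 are known to activate, had one of 0.091 (limma adjusted p = 0.536). No target of this list passed in the fits that left out a drug-treated library, and 2 did without DMSO replicate 3.

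Genes that glucocorticoids induce together with KLF9 were looked at as a list of 6, of which 4 were tested and 1 passed, beside 3.41% of all genes tested. All 4 had a log2 fold change above 0, with a median of 0.31, beside 48% of all genes tested above 0. This list too was chosen with earlier results of these data known. The smallest difference of the 4 was that of TSC22D3, with overlapping groups (log2 fold change 0.096, limma adjusted p = 0.600). DUSP1, a phosphatase of MAP kinases, had 487, 394 and 459 normalized counts with DMSO and 634, 577 and 549 with the drug, a log2 fold change of 0.40 (limma adjusted p = 0.0403). PER1, a clock gene and the highest of the list, had a log2 fold change of 0.22 (limma adjusted p = 0.137). SGK1, a kinase that regulates ion transport, had the largest difference of the list and did not pass, with 42.9, 47 and 35.9 normalized counts with DMSO and 72, 84.8 and 59 with the drug (log2 fold change 0.76, limma adjusted p = 0.0537). FKBP5, among the most responsive genes to glucocorticoids, had at most 1 normalized count in any library, and ZBTB16 was at 0 in every library. The call of DUSP1 was lost without DMSO replicate 3 and without any one drug-treated library.

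**Figure D5:**
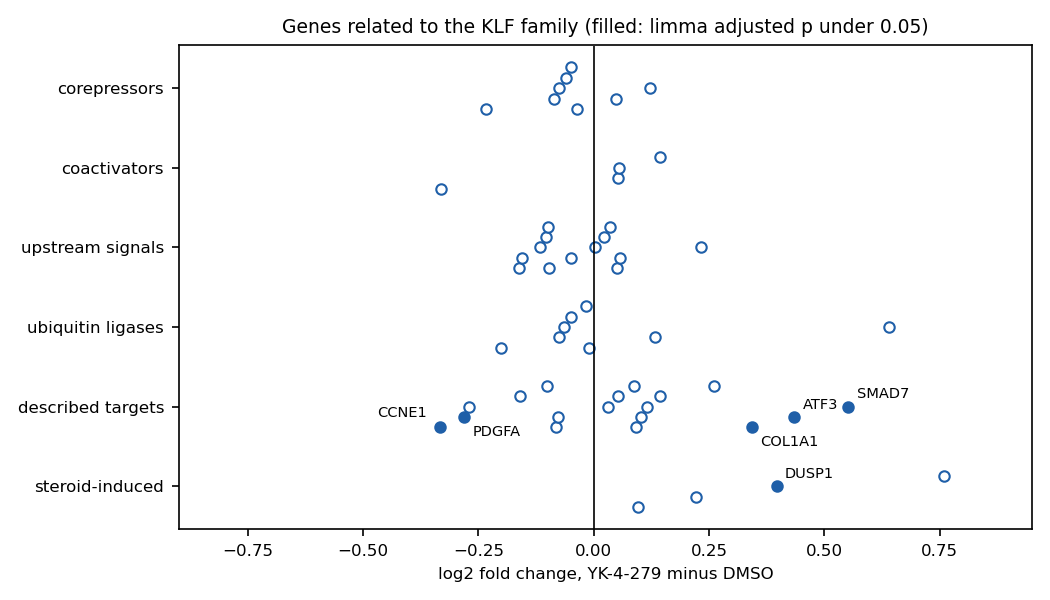
Log2 fold change, YK-4-279 minus DMSO, of tested genes in 6 lists related to the KLF family (one row per list; filled and named, limma adjusted p under 0.05; vertical offsets only separate points). The filled points are SMAD7, ATF3 and COL1A1 above 0 and CCNE1 and PDGFA below 0 among the described targets, and DUSP1 above 0.

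The transcripts of the members were also described by sequence. Their G or C content ran from 41.1% in KLF3 to 61.2% in KLF2, beside a median of 48.5% over the tested genes. The pentamer ATTTA, the core of AU-rich elements known from short-lived mRNAs, occurred at least 3 times after the stop codon in 9 of the 10 members, against 47.8% of 12583 tested coding genes. The stretch after the stop codon was also longer than the median of these genes, 1367 bases, in 8 of the 10 members, all but KLF4 and KLF10, and the part of this length in the share was not tested. KLF7 had 20 pentamers in 7076 bases and KLF3 had 9 in 4254, while KLF4 had 2 in 899 bases.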

How the data were processed

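Polyadenylated RNA of Rh30 cells, 3 libraries with drug and 3 with vehicle, was sequenced after 24 hours. Reads were trimmed (BBDuk), and alignment to hg38 and counting per gene were done by the authors in STAR 2.7.9a. What they deposited is a normalized signal, the reads of each gene divided by a size factor of the library, and the submitters' processing notes name DESeq2 1.44.0. The gene annotation and strand setting used in counting are not given in the sources used here. Of 35269 rows, 1 had no symbol (at most 6 reads per library) and was left out.

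Every value was a whole multiple of its library's smallest value above 0 (tolerance 0.01 read), and 100% of values gave whole reads. The two-sided test was that of limma 3.58.1 (R 4.3.3, lmFit, then eBayes with trend). It was run on log2(normalized count + 1) of 13930 genes whose mean was at least 10, with Benjamini-Hochberg adjustment over all of them, without a replicate block. Fold changes are on this scale and understate those of genes with few reads. The code was tested on simulated reads. The alternatives were other pseudocounts (0.5 and 10) and filters, TMM scaling and quantile normalization, a replicate block, eBayes without trend, omission of each library, edgeR 4.0.16 and DESeq2 1.42.0 on recovered reads, and removal, per library, of the trend on GC content and transcript length (mgcv 1.9.3), which 98.4% of the tested genes had in GENCODE 44.

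The members and gene lists were chosen with earlier results of these data known, and the lists are from general knowledge. Every member was named, and of each list the gene with the highest mean and up to 4 with the largest changes past the threshold. Every other list gene in the text is outside this rule and was named after its values were seen, for its role, its level near 0, its size of change or an unadjusted p under 0.05. Of the genes counted in the lists, 1 called target (also left out of the plot of related genes) and 1 marker of another cell type are not reported here. Counting error of members with few reads adds to the spread between libraries.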

Additional observations from a re-analysis of the deposited data

How the results depend on the processing

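All 17 alternatives were run for each of the 9 members tested. KLF4, KLF5 and KLF7 were above 0, and KLF2 and KLF3 below 0, in every one. Where a value moved, the cause was not tested, although leaving out a library means fewer samples.

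The number of genes called, 475 (176 higher, 299 lower), was 180 with a replicate block, 277 with quantile normalization (132 higher, 145 lower), 33 with eBayes without trend (30 higher, 3 lower) and 1943 after detrending on GC content and length (494 higher, 1449 lower), and went from 19 to 1827 across the 6 fits without 1 library, lowest without drug-treated replicate 1 and highest without DMSO replicate 1. The number of members called, 2, was 0 with a replicate block and with eBayes without trend, 1 with quantile normalization, 3 after detrending on GC content and length, and 0 to 3 across the fits without 1 library. At an unadjusted p under 0.05, 2248 genes passed with eBayes without trend. KLF4 lost its call with a replicate block (0.49), quantile normalization (0.46) and eBayes without trend (0.49), and KLF5 with eBayes without trend (0.46) and a replicate block (0.46). Without 1 library KLF4 went from 0.44 to 0.58, KLF5 from 0.36 to 0.51 and KLF7 from 0.22 to 0.27. KLF7 gained a call after detrending on GC content and length (0.26). Members near 0 changed sign: with quantile normalization KLF10 was 0.015 and KLF13 0.022, and without 1 library KLF6 went from -0.076 to 0.025, KLF9 from -0.061 to 0.15 and KLF10 from -0.061 to 0.022. KLF13 went from -0.055 to -0.00085 without 1 library and was -0.11 after detrending on GC content and length (limma adjusted p = 0.126).

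Of the described targets, 2 were called with a replicate block, 3 with quantile normalization, 0 with eBayes without trend and 0 to 9 without 1 library, against 6. Of the glucocorticoid-induced genes, against 1, 2 were called with a pseudocount of 10, with edgeR or DESeq2 and after detrending on GC content and length, 0 with a replicate block, quantile normalization or eBayes without trend, and 0 to 2 without 1 library. Where 0 were called, the SP genes had 1 without a filter, the corepressors 1 with DESeq2, 2 after detrending and 0 to 2 without 1 library, the acetyltransferases 0 to 2 without 1 library, the upstream signals 1 with DESeq2, 4 after detrending and 0 to 3 without 1 library, and the ubiquitin ligases 1 after detrending and 0 to 1 without 1 library.

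The labels share replicate numbers, but the values showed no pairing by them. The deviations of same-numbered samples from their group means correlated at -0.098, -0.027 and -0.027, and no sample correlated best with its own number. With 3 samples in each group, these values are too few to tell whether same-numbered samples were handled together.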

Other observations

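SP6, an SP gene with a role in teeth and skin that fell under the minimum mean of 10 at 4.95 normalized counts, had 1, 1 and 0 reads in DMSO replicates 1, 2 and 3 and 10, 10 and 8 reads in drug-treated replicates 1, 2 and 3. It was picked out after its values were seen. Pooled over libraries and scaled for depth, the ratio was 13.6 (95% interval 3.42 to 118, counting error only, conditional exact binomial), from 2 reads against 28. The other low SP genes were SP5, with 0 to 1.67 normalized counts in DMSO and 1.71 to 4 in drug-treated libraries, and SP7, which was above 0 only in drug-treated replicate 1.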
